A study of Mus musculus with 6 samples.

Results

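Interferon signalling was followed through 9 genes in the nuclei of mouse brain lesions driven by Foxr2: the interferon gamma receptor chains Ifngr1 and Ifngr2, the signal transducers Stat2 and Stat3, and the interferon regulatory factors Irf1, Irf2, Irf7, Irf8 and Irf9. They were taken by symbol, and all 9 were found among the 32298 genes of the deposited matrices. All had counts in both libraries whose counts were analysed, and all had a peak of open chromatin at their promoter. On mm10 they lie at chr10:19591949-19610229 (Ifngr1), chr16:91547072-91565623 (Ifngr2), chr10:128270559-128292849 (Stat2), chr11:100885098-100939540 (Stat3, minus strand), chr11:53770014-53778374 (Irf1), chr8:46739732-46847458 (Irf2), chr7:141262706-141266481 (Irf7, minus strand), chr8:120736358-120756694 (Irf8) and chr14:55603571-55610030 (Irf9).

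Electroporation in utero was used to make the lesions in C57BL/6J embryos, where neural stem cells of the ganglionic eminences took up piggyBac vectors that express Foxr2 with GFP and Akaluc from the CAG promoter. Every library carried this Foxr2 overexpression. Foxr2 p53LOF tissue was also given a Trp53 guide with Cas9, and Foxr2 alone tissue was not. Tissue was taken as mice became symptomatic, no age was given for the samples, and RNA and accessible chromatin (ATAC-seq) were read from each nucleus by 10x Multiome. The series held 3 libraries. Counts were used for replicate 1 of both genotypes. For replicate 2 of Foxr2 alone the peak list was used. With 1 library per genotype in every comparison of counts, there was no replicate and no test, and genotype, library and the piece of tissue taken cannot be told apart. Intervals are exact, at 95%, and cover counting error only.

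Interferon gamma is sensed by a receptor built from Ifngr1, which binds the ligand, and Ifngr2, which passes the signal to Janus kinases. Type I interferons act through another receptor and a complex of STAT proteins with Irf9, which binds DNA elements known as ISREs. STAT dimers formed after interferon gamma or cytokines of the interleukin 6 family bind elements known as GAS. Irf1 is a classical target and effector of interferon gamma, Irf2 binds similar sites and restrains it, and Irf7 amplifies type I interferon production. Irf8 is needed for the development of microglia, macrophages and dendritic cells, and in the brain its RNA is a marker of microglia. Stat3 mediates cytokine signals such as those of reactive astrocytes.

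RefSeq sequence of the 250 bases before the gene start (GRCm38.p6) was searched for the letters of both elements, TTCNNNGAA for GAS, which reads the same on both strands, and for ISRE a pair of GAAA separated by any 2 bases, on either strand. Of 32851 promoters in the table, 7.02% held the GAS letters, 2.98% the ISRE letters and 9.66% either. These shares are per window, whereas the members are counted per gene. Irf1, Irf8 and Irf9 each had a second window, which held no match. The start is that of RefSeq, which for Irf9 lies 414 bases inside the gene, so that its window does not hold the sequence before the gene start used for peaks. Of the 9 genes, 4 held a match, and no match was in this window of Ifngr1, Ifngr2, Stat3, Irf7 and Irf9. The 4 are shown because they held a match, and capitals mark the matches. Promoter signal is compared between cell classes further on for all 9 genes. A match is a match of letters and not a measured binding site.
Stat2, chr10:128270248-128270497, plus strand, ISRE letters on the other strand from 222 to 213 bases before the start: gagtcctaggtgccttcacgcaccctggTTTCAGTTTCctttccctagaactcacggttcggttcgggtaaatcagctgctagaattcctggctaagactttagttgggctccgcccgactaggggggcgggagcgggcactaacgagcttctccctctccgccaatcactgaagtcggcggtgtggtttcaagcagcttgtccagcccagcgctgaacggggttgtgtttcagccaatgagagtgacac
Irf1, chr11:53769764-53770013, plus strand, GAS letters from 90 to 82 bases before the start: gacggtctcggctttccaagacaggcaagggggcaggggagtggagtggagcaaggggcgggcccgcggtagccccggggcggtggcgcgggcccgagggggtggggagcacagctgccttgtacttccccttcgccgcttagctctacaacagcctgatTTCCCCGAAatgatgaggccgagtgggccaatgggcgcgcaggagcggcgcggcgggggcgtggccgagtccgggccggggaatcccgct
Irf2, chr8:46739495-46739744, plus strand, ISRE letters from 241 to 232 and GAS letters from 224 to 216 bases before the start: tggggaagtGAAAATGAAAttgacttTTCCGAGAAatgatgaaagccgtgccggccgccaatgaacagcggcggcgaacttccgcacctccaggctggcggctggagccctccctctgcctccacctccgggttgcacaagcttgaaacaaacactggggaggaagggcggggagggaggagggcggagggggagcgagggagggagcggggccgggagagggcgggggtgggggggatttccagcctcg
Irf8, chr8:120736108-120736357, plus strand, GAS letters from 171 to 163 and from 153 to 145 bases before the start: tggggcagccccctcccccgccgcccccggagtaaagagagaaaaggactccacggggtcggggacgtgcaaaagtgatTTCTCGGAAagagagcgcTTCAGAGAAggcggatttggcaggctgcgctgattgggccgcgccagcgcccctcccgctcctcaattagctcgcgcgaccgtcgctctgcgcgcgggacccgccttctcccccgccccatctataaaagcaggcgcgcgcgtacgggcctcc
Irf2 held the letters of both elements, and Irf8 held 2 copies of the GAS letters.

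Filters kept 8359 Foxr2 p53LOF nuclei and 8316 Foxr2 alone nuclei, with medians of 5527 and 3637 UMIs (unique molecules of RNA), and 140 cell barcodes occurred in both libraries. Levels are in CPM, the UMIs of a gene scaled to a fixed total of UMIs of the nuclei summed. The RNA of Foxr2 itself had 42.6 CPM with p53LOF and 3.61 CPM without, and that of Trp53, whose level does not check a CRISPR edit, 33.6 and 12.9 CPM. Nuclei were grouped into classes by marker genes, and the classes are called "-like". The library of Foxr2 p53LOF held 2253 neuron-like, 1523 oligodendrocyte-like, 1282 COP-like (committed oligodendrocyte precursor), 1094 astrocyte-like, 94 OPC-like (oligodendrocyte precursor), 1196 macrophage-like, 513 microglia-like and 102 T and NK-like nuclei. That of Foxr2 alone held 4244 neuron-like, 3020 oligodendrocyte-like, 428 astrocyte-like, 169 OPC-like and 415 microglia-like nuclei, and at most 8 of any other named class. Immune-like is the sum of the microglia-like, macrophage-like and T and NK-like classes. The same class was mostly held by different clusters in the 2 libraries: astrocyte-like nuclei of Foxr2 p53LOF lay in a cluster with Hmga2 and Gbp4 among its top genes, and those of Foxr2 alone in another led by Gm4710 and Etnppl, and neuron-like nuclei of Foxr2 alone included a cluster of 464 nuclei led by the vector gene PiggybacTransposase. ATAC counts on vector sequence were found in 27.0% of COP-like and 30.5% of astrocyte-like nuclei of Foxr2 p53LOF, against 0.657% of oligodendrocyte-like nuclei. GFP transcripts of the vector were at 717 CPM in COP-like, 582 CPM in astrocyte-like, 444 CPM (368 to 531) in T and NK-like, 217 CPM in macrophage-like and 207 CPM in microglia-like nuclei of that library, and the oligodendrocyte-like and neuron-like classes had 186 and 76.2 CPM. In Foxr2 alone GFP was at 150 CPM in astrocyte-like, 58.3 CPM in oligodendrocyte-like, 19.2 CPM in neuron-like and 18.9 CPM in microglia-like nuclei. Of astrocyte-like nuclei, 1008 of 1094 in Foxr2 p53LOF and 81 of 428 in Foxr2 alone had a GFP UMI. Their median depths were 7910.5 and 2623 UMIs. Astrocyte markers had a median log2 ratio of 4.34 to the lower quartile of clusters in the astrocyte-like cluster with Hmga2. The markers of the next glial class had 3.85 there. In the astrocyte-like cluster led by Gm4710 these values were 5.845 and 1.1. A finer clustering (resolution 1.0) held a further astrocyte-like cluster of 125 Foxr2 p53LOF nuclei, led by A2m, with 6.62 and 2.33. All 125 were unnamed in the clustering used for the classes. Neuron-like clusters of Foxr2 p53LOF were led by genes such as Lhx9, Th and Sim1, and those of Foxr2 alone by genes such as Penk and Sst.

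The receptor chains marked the immune-like nuclei in both libraries, and Ifngr1 was lower in immune-like and astrocyte-like nuclei of Foxr2 p53LOF. In microglia-like nuclei Ifngr1 was at 172 CPM (152 to 193) in Foxr2 p53LOF and at 507 CPM (448 to 571) in Foxr2 alone, 0.339-fold (0.286 to 0.403), with median depths of 2537 and 1125 UMIs per nucleus. The astrocyte-like nuclei differed in the same direction, with 9.54 CPM (7.73 to 11.6) against 31.6 CPM (23.3 to 41.9), 0.302-fold (0.211 to 0.436). Both lay near the 2-fold limit under other settings: the log2 ratio was -0.92 in immune-like nuclei with at least 1000 genes and 1000 fragments, and -0.93 in astrocyte-like nuclei with doublets kept. No other class showed this for Ifngr1: neuron-like nuclei had 8.66 and 8.56 CPM, oligodendrocyte-like nuclei 16.0 and 20.9 CPM, and OPC-like nuclei 27.8 and 21.8 CPM, each with a counting interval of the ratio that included 1. Within Foxr2 p53LOF, T and NK-like nuclei had the most Ifngr1, at 418 CPM (345 to 503), followed by microglia-like and macrophage-like nuclei at 172 and 141 CPM, all above the glia-like and neuron-like classes, of which the highest was at 27.8 CPM.

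Ifngr2, the signalling chain, was also highest in myeloid classes but did not follow Ifngr1 elsewhere. Microglia-like nuclei had 179 CPM (159 to 201) in Foxr2 p53LOF and 219 CPM (181 to 263) in Foxr2 alone, and macrophage-like nuclei of Foxr2 p53LOF had 132 CPM. The T and NK-like nuclei, the class highest for Ifngr1, had 22.2 CPM (8.15 to 48.3) of Ifngr2, from 6 UMIs. In neuron-like nuclei Ifngr2 was at 11.4 and 15.6 CPM, in astrocyte-like nuclei at 7.85 and 10.5 CPM and in oligodendrocyte-like nuclei at 4.19 and 6.10 CPM. The value of Foxr2 p53LOF was the lower of each pair by less than 2-fold. Only in neuron-like nuclei did the interval of the ratio (0.631 to 0.847) exclude 1. OPC-like nuclei had 0 UMIs in Foxr2 p53LOF, where the floor of 3 counts in the class comes to 9.25 CPM, and 7 UMIs (15.3 CPM) in Foxr2 alone, less than 2-fold above that floor.

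Stat2, the partner of Irf9 in the type I interferon complex, was higher in Foxr2 p53LOF in every class compared. Its levels in Foxr2 alone were low, at 23.9 CPM (22.3 to 25.7) in neuron-like, 25 CPM (17.7 to 34.3) in astrocyte-like, 24 CPM (12 to 42.9) in OPC-like and 19.3 CPM (15.2 to 24.2) in oligodendrocyte-like nuclei, with overlapping intervals, and microglia-like nuclei stood above them at 77.5 CPM (55.6 to 105). In Foxr2 p53LOF the levels spread out. Oligodendrocyte-like nuclei reached 378 CPM (359 to 397), microglia-like 362 CPM (333 to 392), astrocyte-like 344 CPM (333 to 356) and macrophage-like 339 CPM (323 to 356), while COP-like nuclei had 194 CPM (186 to 202), OPC-like 148 CPM (109 to 196), T and NK-like 126 CPM (87.1 to 176) and neuron-like 58.9 CPM (55.9 to 62.0). Ratios between the libraries were therefore largest in oligodendrocyte-like nuclei, at 19.5-fold (15.5 to 24.9), and smallest in neuron-like nuclei, at 2.46-fold (2.25 to 2.68). Oligodendrocyte-like nuclei of Foxr2 p53LOF had more Stat2 than COP-like nuclei, whose level was 0.514-fold (0.481 to 0.549) theirs.

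Stat3 was higher in oligodendrocyte-, astrocyte- and neuron-like nuclei of Foxr2 p53LOF and was not called in OPC-like and microglia-like nuclei. Foxr2 p53LOF had 4.38-fold the level of Foxr2 alone in oligodendrocyte-like nuclei (193 against 44.0 CPM), 2.70-fold in astrocyte-like (341 against 126 CPM) and 2.43-fold in neuron-like nuclei (67.0 against 27.6 CPM). Microglia-like nuclei had nearly the same level in both libraries, 333 CPM (306 to 363) and 323 CPM (277 to 376), a ratio of 1.03 (0.866 to 1.23), and OPC-like nuclei had 154 and 120 CPM, a ratio of 1.29 (0.859 to 1.92). The highest Stat3 of any class was in T and NK-like nuclei, at 518 CPM (436 to 611). Stat3 shares sequence with Stat5a on the other strand.

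Irf1 was low in neuron-, astrocyte- and oligodendrocyte-like nuclei of Foxr2 alone, at 1.39 to 3.95 CPM, and OPC-like nuclei (15.3 CPM, 6.14 to 31.5) overlapped microglia-like ones there. Astrocyte-like nuclei had 235 CPM (226 to 245) in Foxr2 p53LOF against 3.95 CPM (1.45 to 8.59) in Foxr2 alone, 59.5-fold (27.3 to 162). Oligodendrocyte-like nuclei had 64.9 against 1.78 CPM, 36.4-fold (17.4 to 91.5), and microglia-like nuclei 148 against 26.5 CPM, 5.6-fold (3.27 to 10.4). With 235 CPM the astrocyte-like class stood above every other class of its library, including the immune-like classes at 138 to 148 CPM and the COP-like class at 149 CPM, which overlapped each other. Neuron-like nuclei were far lower, with 7.11 CPM against 1.39 CPM in Foxr2 alone, and both values are under the limit of 10 CPM set for calls.

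Irf2, which binds the same sites as Irf1, varied less. Its ratios between the libraries ran from 1.44 (1.21 to 1.72) in immune-like nuclei, and 1.61 (1.34 to 1.95) in the microglia-like ones among them, to 3.32 (2.80 to 3.96) in oligodendrocyte-like nuclei, at 146 and 44.0 CPM. The immune-like ratio was past 2-fold with the stricter limits on nuclei described at the end. Astrocyte-like nuclei had 205 and 90.8 CPM and neuron-like nuclei 99.4 and 48.8 CPM, and the latter ratio, 2.04 (1.91 to 2.17), lies at the limit of the call and was under it, at 98.0 against 48.8 CPM, without the nuclei of Foxr2 p53LOF that held a UMI of an immune marker. Within Foxr2 alone, the transposase-led neuron-like cluster had 69.2 CPM and the other neuron-like clusters 45.6 CPM.

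Irf7 and Irf9, both induced by type I interferon, were low in Foxr2 alone in every class. Irf7 had 0 UMIs in 428 astrocyte-like nuclei of Foxr2 alone and 226 UMIs in Foxr2 p53LOF, at 22.5 CPM, which makes it at least 11.4-fold higher against a floor of 3 counts. Oligodendrocyte-like nuclei had 81 UMIs (19.99 CPM) against 1 UMI (0.254 CPM), a ratio of 78.6 (13.7 to 3141). The microglia-like difference was less sure, with 11.8 CPM against 2 UMIs (3.78 CPM) and a ratio of 3.12 (0.752 to 27.6) whose interval includes 1. Among immune-like classes of Foxr2 p53LOF, Irf7 was higher in macrophage-like than in microglia-like nuclei, at 26.4 and 11.8 CPM, 2.24-fold (1.38 to 3.85), the only member past 2-fold in that comparison, where 10.9% of all genes were higher and 4.95% lower. Irf9 was at 46.6 against 9.21 CPM in astrocyte-like, 32.1 against 4.32 CPM in oligodendrocyte-like, 39.1 against 15.1 CPM in microglia-like and 13.3 against 2.94 CPM in neuron-like nuclei. Its levels in Foxr2 p53LOF had overlapping intervals in COP-like, T and NK-like, macrophage-like and microglia-like nuclei, between 33.3 and 39.1 CPM. Irf9 shares sequence on its own strand with Rnf31, so reads of this pair could be ambiguous. Irf7 shares sequence with Phrf1 on the other strand.

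**Figure D1:**
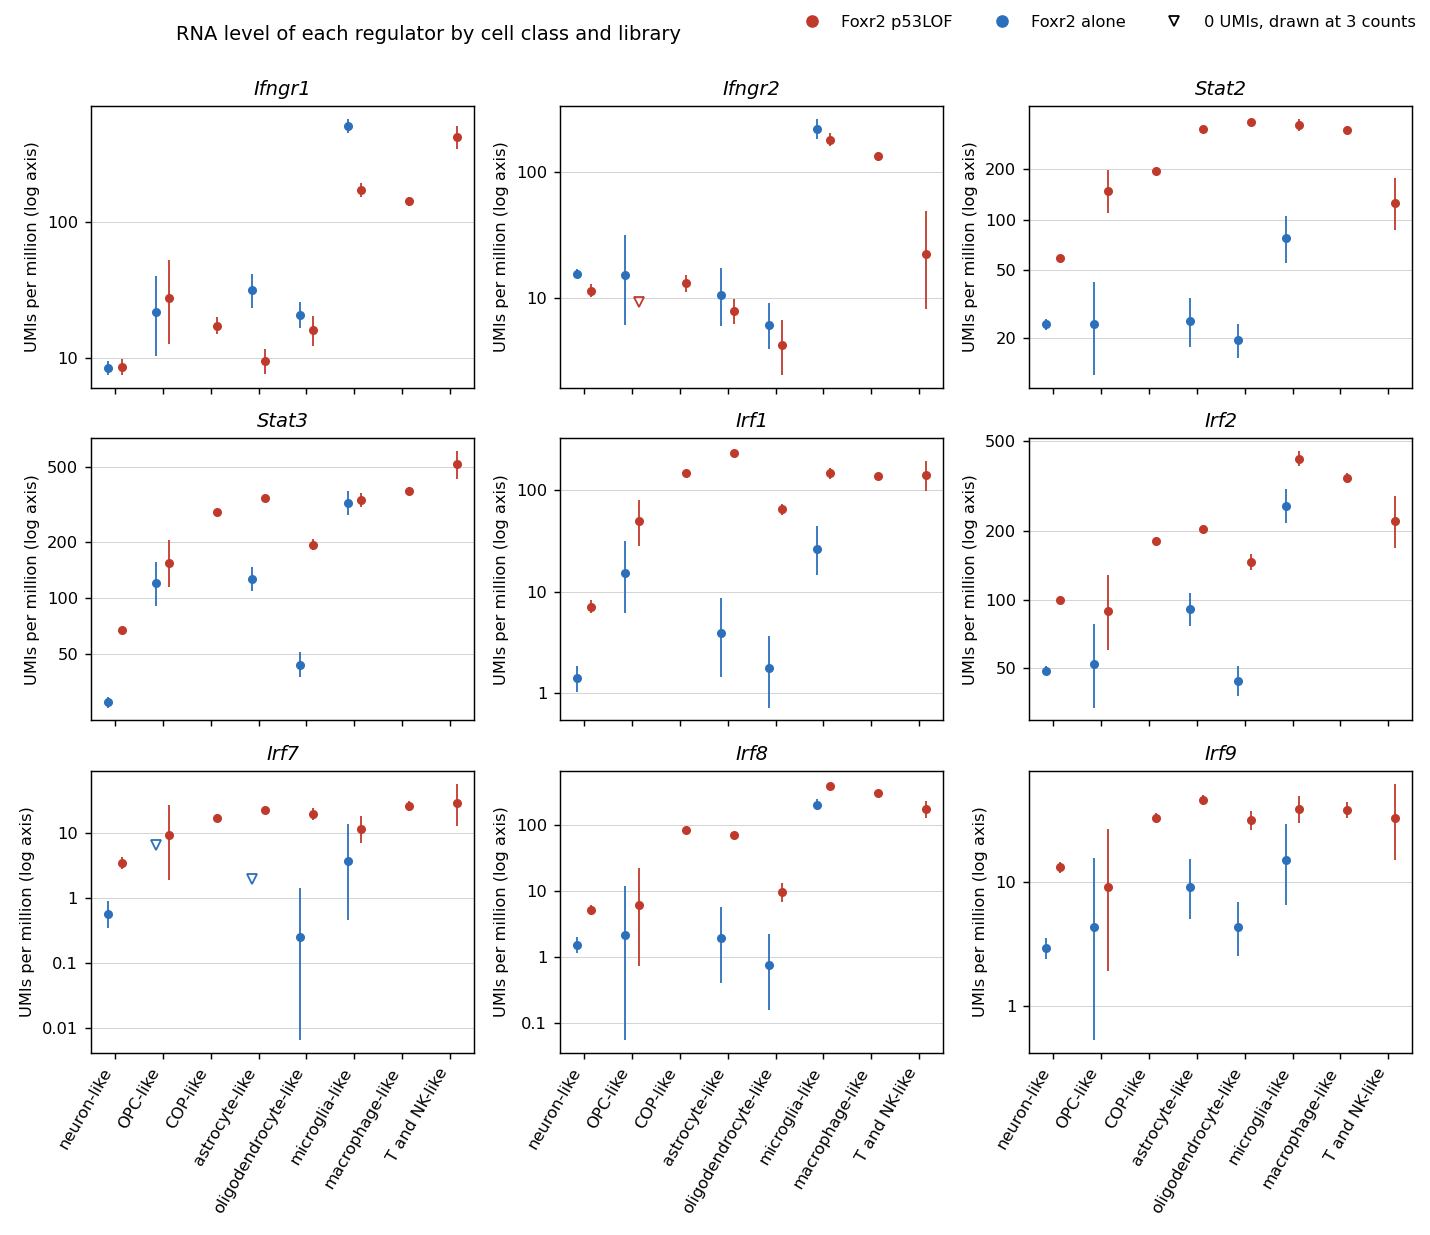
Levels of the 9 genes in CPM (log axis) in each cell class of Foxr2 p53LOF and Foxr2 alone, with 95% Poisson intervals that cover counting error only. Irf8 and the receptor chains are highest in immune-like classes, and Stat2 reaches 378 CPM in oligodendrocyte-like nuclei of Foxr2 p53LOF against 19.3 CPM in Foxr2 alone.

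A gene was counted as higher or lower when it had at least 10 CPM in 1 group and differed at least 2-fold in CPM plus 1. In astrocyte-like nuclei, mostly held by different clusters in the 2 libraries, 7 of the 9 members were higher in Foxr2 p53LOF and 1, Ifngr1, was lower. In this class 22.6% of all genes tested were higher and 27.6% lower (50.2% in either direction). In oligodendrocyte-like nuclei 7 members reached 10 CPM. Of these 6 were higher and none lower, all members but Irf8 and the receptor chains, where 12.6% of all genes were higher and 19.8% lower (32.4% in either direction). In neuron-like nuclei 5 members reached 10 CPM. Of these 4 were higher, Stat2, Stat3, Irf2 and Irf9, and none lower, where 12.7% of all genes were higher and 18.1% lower (30.8% in either direction). In OPC-like nuclei, where 6 members reached 10 CPM, Stat2 and Irf1 were higher, and Ifngr2 passed the rule as lower on 0 against 7 UMIs with an interval of the ratio that reached 0.981 (10.4% of all genes were higher, 24.3% lower and 34.7% in either direction). Immune-like nuclei had 4 members higher, Stat2, Irf1, Irf7 and Irf9, and Ifngr1 lower (16.1% of all genes were higher, 21.3% lower and 37.4% in either direction). With microglia-like nuclei alone the same 5 were called (13.2% of all genes were higher, 24.2% lower and 37.4% in either direction). The median log2 ratio of the members was 2.59 in oligodendrocyte-like, 2.22 in astrocyte-like, 1.26 in neuron-like, 0.94 in microglia-like and 0.73 in immune-like nuclei, while the medians of all genes tested lay between -0.21 and 0.01.

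**Figure D2:**
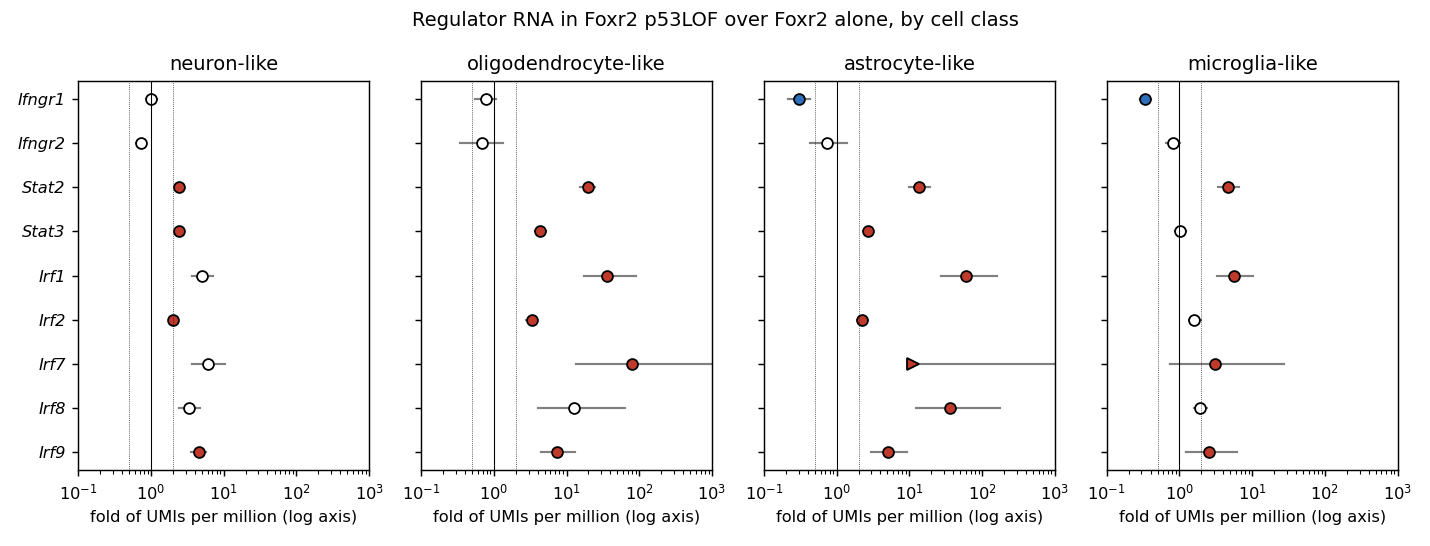
Ratio of each gene's CPM in Foxr2 p53LOF to that in Foxr2 alone (log axis) in neuron-, oligodendrocyte-, astrocyte- and microglia-like nuclei, with exact 95% intervals for counting error. Red points are called higher and blue points lower, white points are not called or under 10 CPM, and a triangle is a lower bound. Ifngr1 is the blue point, at 0.302-fold in astrocyte-like and 0.339-fold in microglia-like nuclei.

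Irf8 was the member with the sharpest class pattern. In Foxr2 alone microglia-like nuclei had 206 CPM (169 to 249), against 1.54 CPM in neuron-like, 1.97 CPM in astrocyte-like (3 UMIs), 0.763 CPM in oligodendrocyte-like (3 UMIs) and 2.18 CPM in OPC-like nuclei (1 UMI). In Foxr2 p53LOF microglia-like nuclei had 396 CPM (366 to 428) and macrophage-like nuclei 307 CPM (292 to 324), and the T and NK-like nuclei had 178 CPM (131 to 236). Outside these classes, COP-like nuclei of Foxr2 p53LOF had 85.2 CPM (79.97 to 90.6) and astrocyte-like nuclei 72.0 CPM (66.9 to 77.5). In that library the oligodendrocyte-like class had 9.62 CPM (6.84 to 13.2) and neuron-like nuclei 5.16 CPM (4.32 to 6.13). The COP-like level was 8.85-fold (6.43 to 12.5) that of the oligodendrocyte-like nuclei, and Irf1 (2.30-fold) and Ifngr2 (3.11-fold) were the other 2 members past 2-fold in this comparison, in which 26.5% of all genes were higher and 9.99% lower (36.5% in either direction). The median log2 ratio of this comparison was 0.30 over the members and 0.42 over all genes tested, so genes in general were higher in COP-like nuclei. Astrocyte-like nuclei differed between the libraries by a ratio of 36.5 (12.4 to 177), and microglia-like nuclei by 1.92 (1.57 to 2.38). The ratio of immune-like nuclei was 1.66 (1.37 to 2.03), and past 2-fold with the stricter limits on nuclei described at the end. Irf8 shares sequence on its own strand with Gm20388.

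Free RNA in droplets was not modelled, and its part in the RNA of a class was not tested. Irf8 was set beside 8 markers of immune cells in general (Ptprc, Csf1r, Inpp5d, Dock2, Ikzf1, Fli1, Cd74 and Dock8). Their summed level in Foxr2 p53LOF was 10229 CPM in microglia-like and 8089 CPM in macrophage-like nuclei, 313 CPM in COP-like, 164 CPM in astrocyte-like, 118 CPM in oligodendrocyte-like and 58.8 CPM in neuron-like nuclei, and none of the 8 was at 0 in these classes. In Foxr2 alone the sum was 5848 CPM in microglia-like, 11.4 CPM in neuron-like and 7.24 CPM in astrocyte-like nuclei, the last with Ptprc, Dock2 and Cd74 at 0. Irf8 per CPM of these markers was 0.0388 at most in the immune-like classes, 0.272 in COP-like and 0.440 in astrocyte-like nuclei, and 0.0813 in oligodendrocyte-like and 0.0878 in neuron-like nuclei. In Foxr2 alone it was 0.273 in astrocyte-like nuclei, from 3 Irf8 UMIs, and 0.135 in neuron-like nuclei. Cd74, itself induced by interferon gamma, made up 115 CPM of the COP-like and 117 CPM of the astrocyte-like sum. Among nuclei without any UMI of the 8 markers, Irf8 was at 88.1 CPM (79.8 to 96.9) in 644 COP-like and at 62.0 CPM (54.9 to 69.8) in 552 astrocyte-like nuclei, against 7.28 CPM in oligodendrocyte-like and 3.82 CPM in neuron-like nuclei. The COP-like level without marker-bearing nuclei was thus close to the 85.2 CPM of the whole class, and the astrocyte-like level was below the 72.0 CPM of its class.

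Shares of nuclei were also counted. Thinned to 1000 UMIs per nucleus, 7.81% (6.35 to 9.47) of COP-like and 6.86% (5.44 to 8.53) of astrocyte-like nuclei of Foxr2 p53LOF had an Irf8 UMI, against 30.2% (26.2 to 34.4) of microglia-like nuclei and 0.355% (0.153 to 0.698) of neuron-like nuclei, the class taken as the one that should lack Irf8. The median depths of these nuclei before thinning were 7923.5, 7911, 2550 and 9947 UMIs. Oligodendrocyte-like nuclei had 1.33% (0.812 to 2.04), and OPC-like nuclei had 0 of 94, which at 3 counts allows up to 3.19% with a UMI at this depth (2.13%, 2 nuclei, had one without thinning). In Foxr2 alone 19.2% (14.7 to 24.4) of microglia-like nuclei had a UMI, against 0.166% of neuron-like nuclei, and 0 of 427 astrocyte-like nuclei, which at 3 counts allows up to 0.703% with a UMI at this depth (0.701%, 3 nuclei, had one without thinning). Thinning left out 144 microglia-like and 914 oligodendrocyte-like nuclei of Foxr2 alone. Without thinning the shares were 31.3% in COP-like, 33.7% in astrocyte-like, 59.5% in microglia-like and 4.97% in neuron-like nuclei of Foxr2 p53LOF, and 21.7% in microglia-like nuclei of Foxr2 alone.

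Finer clusters, at resolution 1.0, placed the highest Irf8 in 194 immune-like nuclei led by Clec9a, a lectin receptor of dendritic cells, at 624 CPM (569 to 683). All 194 were macrophage-like in the coarser clustering, so the macrophage-like level of Irf8 includes them. The microglia-like cluster of Foxr2 p53LOF followed at 416 CPM (384 to 450), and a macrophage-like cluster led by S100a8 and S100a9 had 270 CPM (252 to 289). Among glia-like clusters, a small OPC-like one of 122 nuclei led by the cell-cycle gene Cdc25c had 78.1 CPM (63.1 to 95.6) of Irf8 with only 84.7 CPM of immune markers. An OPC-like cluster led by Neu4 had 9.08 CPM (1.87 to 26.5) of Irf8 with 433 CPM of immune markers. Irf8 and the immune markers thus had a different order in these clusters. All neuron-like clusters lay between 0 and 11.8 CPM in both libraries. Clusters of Foxr2 p53LOF with markers of more than 1 kind of class were left unnamed. One of 241 nuclei led by Fcrls, with Hmga2 among its top genes and a median of 7627 UMIs, had 163 CPM (147 to 181) of Irf8 with 4365 CPM of immune markers, and 117 of its nuclei were macrophage-like, 24 microglia-like and 100 unnamed in the coarser clustering used for the classes. Another of 314 nuclei led by Pomc had 42.2 CPM (28.7 to 59.95) with 305 CPM of immune markers, and 312 of its nuclei were COP-like in the coarser one. The Cdc25c-led cluster was mostly astrocyte-like there, with 121 of its 122 nuclei.

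**Figure D3:**
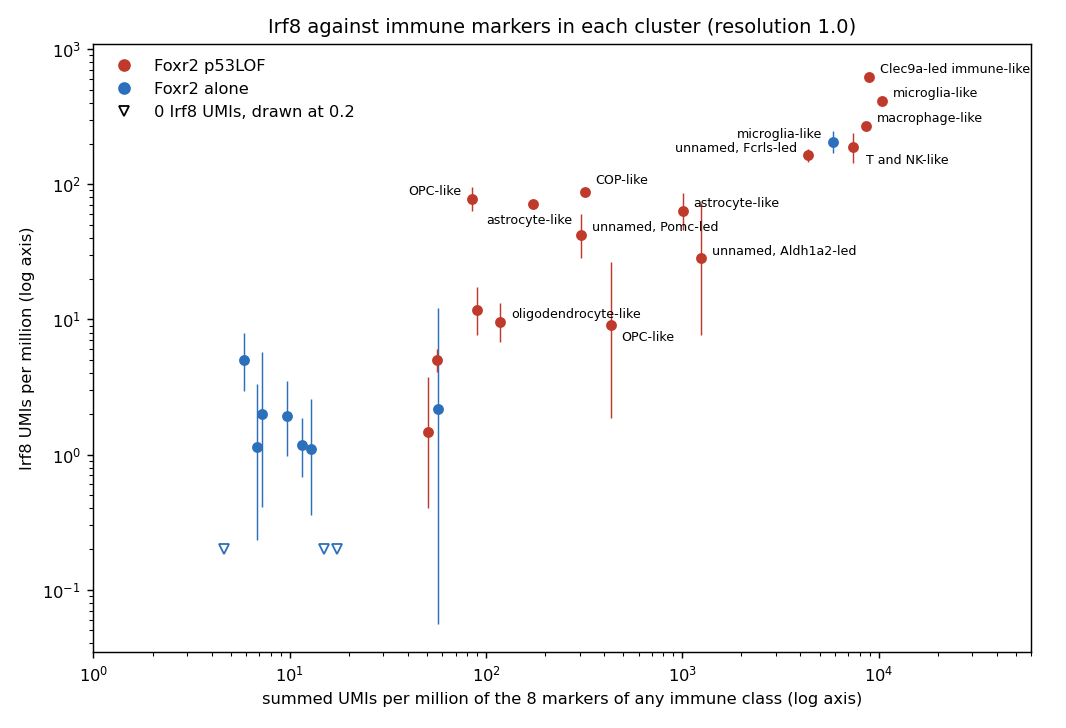
Irf8 level (CPM, log axis) against the summed level of 8 immune markers (CPM, log axis) in each cluster of each library at resolution 1.0. Triangles mark clusters with 0 Irf8 UMIs. The COP-, astrocyte- and Cdc25c-led OPC-like clusters of Foxr2 p53LOF lie at 63.9 to 88.2 CPM of Irf8, above oligodendrocyte- and neuron-like clusters.

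Within the OPC-, COP- and astrocyte-like nuclei of Foxr2 p53LOF, the 682 nuclei with an ATAC count on the vector were compared with the 1788 without. No member differed by 2-fold (0.0295% of all genes were higher and 0.393% lower, 0.422% in either direction), and the ratios ran from 1.0 for Irf8, at 78.0 CPM in both, to 1.17 (1.02 to 1.35) for Irf9. The 2 sets differed in depth, with medians of 14235.5 and 7907.5 peak counts and of 8878 and 7048 UMIs. A nucleus without such a count was not shown to lack the vector. A GFP UMI was found in 1099 of 1282 COP-like and 1008 of 1094 astrocyte-like nuclei.

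In both libraries the members were higher in immune-like than in neuron-like nuclei, all 9 in Foxr2 p53LOF (31.0% of all genes were higher and 23.3% lower, 54.3% in either direction) and 8 in Foxr2 alone (29.9%, 23.7% and 53.6%), where Irf7, with 3 UMIs in immune-like nuclei, did not reach 10 CPM. Irf8 had the largest ratio, 62.7 (52.5 to 75.4) in Foxr2 p53LOF and 127 (90.03 to 180) in Foxr2 alone. Ifngr1 followed in Foxr2 alone with 58.1 (49.1 to 68.8) and had 18.5 (16.0 to 21.5) in Foxr2 p53LOF. Irf9 and Irf2 had the smallest ratios of immune-like to neuron-like nuclei in Foxr2 p53LOF, 2.92 and 3.59.

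Promoter accessibility was read from ATAC peaks within 1000 bp of each gene start, summed per gene and class, and given as peak CPM, relative to all peak counts of the class. The peak at the Irf8 start lay at chr8:120735763-120736669 in Foxr2 p53LOF (mm10), and those of Stat2, Irf1, Irf7 and Irf9 at chr10:128270011-128270926, chr11:53769605-53770426, chr7:141265873-141266791 and chr14:55603706-55604624. Each covered the start and part of an exon, except that of Irf9, which lay over an exon just past the start. The same promoters had a peak in both Foxr2 alone replicates, and a further peak of Irf7, over an exon past the start at chr7:141264752-141265495, was called only in Foxr2 p53LOF.

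Irf7 had the largest promoter ratio of the 9 between the libraries in each class compared. Its level was 45.2 peak CPM in oligodendrocyte-like nuclei of Foxr2 p53LOF against 4.13 in Foxr2 alone (10.9-fold, 8.63 to 14.0), at 48.0 against 5.26 in astrocyte-like (9.12-fold), at 30.8 against 6.70 in neuron-like (4.60-fold) and at 54.7 against 18.7 in microglia-like nuclei (2.92-fold). With the main peak alone, present in both peak lists, the ratios were 8.09, 6.43, 3.42 and 1.71, the last short of 2-fold. A second peak of Ifngr2 was called only in the Foxr2 alone lists, and with its main peak alone the neuron-like ratio of Ifngr2 was 2.24 (2.00 to 2.50) in place of 1.69, past 2-fold. Irf1 was higher in oligodendrocyte-like nuclei (60.7 against 13.6, 4.48-fold) and neuron-like nuclei (29.2 against 12.2, 2.40-fold), and Irf9 in oligodendrocyte-like nuclei (62.8 against 19.2, 3.28-fold). In neuron-like nuclei promoters in general were higher in Foxr2 p53LOF, with a median log2 ratio of 0.35 over all promoters tested. With all peaks, promoters past 2-fold were 3 of 9 in oligodendrocyte-like (of all promoters tested 2.45% were higher and 1.47% lower, 3.92% in either direction), 2 in astrocyte-like (8.93%, 4.66% and 13.6%), 2 in neuron-like (9.83%, 1.6% and 11.4%), 1 in OPC-like (5.41%, 8.28% and 13.7%), 1 in immune-like (4.06%, 2.62% and 6.68%) and 1 in microglia-like nuclei (2.82%, 2.61% and 5.42%). All were higher, and no member was lower by 2-fold.

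RNA and promoter did not differ alike for every member. The Stat2 promoter had 52.1 and 54.8 peak CPM in astrocyte-like and 82.4 and 60.7 in oligodendrocyte-like nuclei (1.36-fold), where its RNA differed 13.8-fold and 19.5-fold. The Ifngr1 promoter of astrocyte-like nuclei was at 39.8 against 58.7 peak CPM, in the direction of its RNA but short of 2-fold.

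The Irf8 promoter was highest in the immune-like classes of Foxr2 p53LOF and intermediate in COP-like and astrocyte-like nuclei, as its RNA was. It was at 116 peak CPM (104 to 128) in microglia-like, 99.4 (75.8 to 128) in T and NK-like and 83.0 (77.1 to 89.2) in macrophage-like nuclei, then at 52.1 (48.1 to 56.3) in astrocyte-like and 45.1 (41.8 to 48.5) in COP-like nuclei. Oligodendrocyte-like nuclei had 19.6 (16.6 to 22.9) and neuron-like nuclei 13.3 (11.7 to 15.0). Over neuron-like nuclei the astrocyte-like ratio was 3.93 (3.39 to 4.56) and the COP-like ratio 3.40 (2.94 to 3.94), and Irf8 was the only member past 2-fold in either comparison, where 8.41% and 7.88% of all promoters were higher (19.2% and 17.3% were called in either direction). In Foxr2 alone, astrocyte-like nuclei had 25.5 (20.5 to 31.2) and neuron-like nuclei 21.2 (20.02 to 22.4) peak CPM, and microglia-like nuclei 93.5.

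Over neuron-like nuclei, immune-like nuclei had 6 of 9 promoters past 2-fold in Foxr2 p53LOF (11.1% of all were higher and 21.5% lower, 32.6% in either direction) and all 9 in Foxr2 alone (25.4%, 18.3% and 43.6%). The 3 that were not, in Foxr2 p53LOF, were Stat2, Stat3 and Irf7. Neuron-like nuclei of Foxr2 p53LOF were at 43.5, 78.9 and 30.8 peak CPM for these 3, and those of Foxr2 alone at 34.9, 53.9 and 6.70, in a comparison where the median log2 ratio was 0.63 over the 9 members and 0.35 over all promoters.

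**Figure D4:**
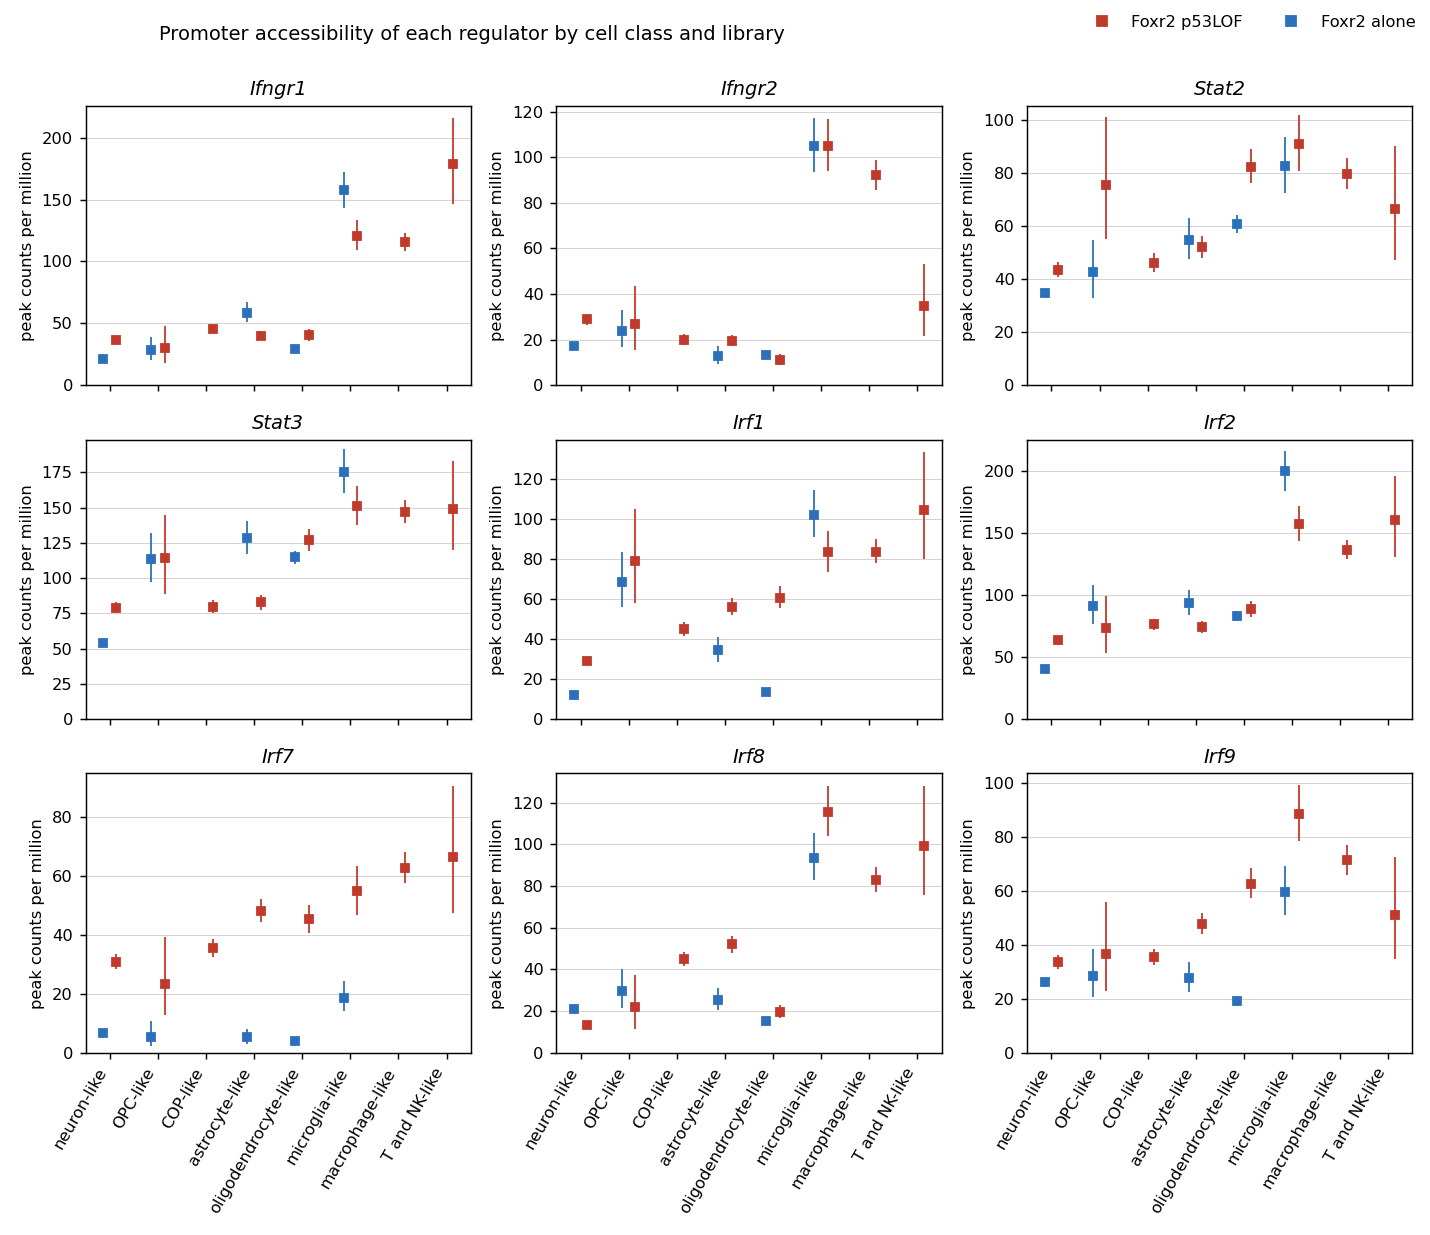
Accessibility of the 9 promoters in peak CPM (linear axis from 0) in each class of both libraries, with exact 95% intervals for counting error. Irf7 is above Foxr2 alone in every class of Foxr2 p53LOF, and Irf8 in astrocyte-like nuclei is at 52.1 against 25.5 peak CPM.

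The other genes of the pathway were taken from lists. Of 16 targets of type I interferon in the files, all 16 were higher in immune-like and in astrocyte-like nuclei of Foxr2 p53LOF, 13 of 14 that reached 10 CPM in oligodendrocyte-like and 9 of 10 in neuron-like nuclei, and none was lower. The shares of all genes that were higher were 16.1%, 22.6%, 12.6% and 12.7% in these classes. Rsad2, an antiviral enzyme, was at 213 against 7.90 CPM in astrocyte-like nuclei, and Oasl2 at 290 CPM against 1 UMI. Of the targets of interferon gamma that reached 10 CPM, 15 of 15 were higher in astrocyte-like, 14 of 16 in immune-like, 13 of 13 in oligodendrocyte-like and 9 of 9 in neuron-like nuclei, against 22.6%, 16.1%, 12.6% and 12.7% of all genes. The median log2 ratio of these targets was 5.43 in astrocyte-like and 3.82 in immune-like nuclei, and that of the type I targets 4.34 and 3.87, against 0.01 and -0.13 over all genes. The guanylate-binding protein Gbp2 was at 1143 against 5.92 CPM in astrocyte-like nuclei, and Ciita, the master regulator of MHC class II genes, had 0 UMIs in astrocyte-like and immune-like nuclei of Foxr2 alone, with 48.6 and 225 CPM in Foxr2 p53LOF.

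Ligands were rare. Ifng had 37 UMIs in 25 nuclei of Foxr2 p53LOF, 19 of them in T and NK-like nuclei (70.3 CPM), and Ifnb1 had 43 UMIs in 15 nuclei, 27 of them in macrophage-like nuclei. Neither had a UMI in 8316 nuclei of Foxr2 alone, and 5 of the other 6 ligands had none in either library.

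The list of 11 other receptors and receptor kinases holds chains of the type I and type III interferon receptors and of receptors of the interleukin 6 family, with the Janus kinases. None of 7 was past 2-fold in neuron-like nuclei, where 12.7% of all genes were higher and 18.1% lower, and 3 of 9 were higher and none lower in astrocyte-like nuclei (22.6% and 27.6% of all genes). In immune-like nuclei 1 of 9 was higher and 1 lower (16.1% and 21.3%), in OPC-like nuclei 2 of 8 were higher and 1 lower (10.4% and 24.3%), and in oligodendrocyte-like nuclei 1 of 7 was higher and none lower (12.6% and 19.8%). Jak2, which signals for the interferon gamma receptor, was at 287 against 67.1 CPM in astrocyte-like nuclei (4.28-fold, 3.51 to 5.26), and Il6ra at 43.1 against 10.5 CPM. Lifr was lower in immune-like nuclei, at 160 against 457 CPM. Of the inhibitors, 5 of 9 were higher in astrocyte-like, 4 of 11 in immune-like, 2 of 7 in oligodendrocyte-like and none of 6 in neuron-like nuclei, against 22.6%, 16.1%, 12.6% and 12.7% of all genes, and none was lower in these classes. In OPC-like nuclei 1 of 7 inhibitors was higher and 2 were lower (10.4% and 24.3% of all genes). Usp18, which blocks the type I receptor, had 0 UMIs in astrocyte-like nuclei of Foxr2 alone against 82.2 CPM, at least 41.6-fold higher, and Socs1, which inhibits Janus kinases, had 1 UMI against 45.9 CPM.

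Of 12 genes of nucleic acid sensing, 4 of 10 were higher and 2 lower in immune-like nuclei (16.1% and 21.3% of all genes), 3 of 6 higher and 1 lower in astrocyte-like (22.6% and 27.6%), 3 of 4 higher in oligodendrocyte-like (12.6%), 4 of 6 in OPC-like (10.4%) and 2 of 3 in neuron-like nuclei (12.7%), with none lower in the last 3 classes. The RNA sensors Ddx58 and Ifih1 were higher in every class of Foxr2 p53LOF compared, for instance at 266 against 17.8 CPM for Ifih1 in astrocyte-like nuclei, while the endosomal sensor Tlr7 was lower in microglia-like nuclei, at 230 against 645 CPM. Of 12 other STAT and IRF factors, 3 of 10 were higher in immune-like, 1 of 6 in astrocyte-like and 2 of 6 in neuron-like nuclei, against 16.1%, 22.6% and 12.7% of all genes. None of them was lower in immune-like and 1 in astrocyte-like nuclei (21.3% and 27.6% of all genes), and 2, Stat4 and Irf2bp1, were lower in neuron-like nuclei (18.1%). Oligodendrocyte-like nuclei had 1 of 5 higher and 1 lower (12.6% and 19.8%), and OPC-like nuclei 3 of 8 higher and 1 lower (10.4% and 24.3%). Stat4 was at 33.5 CPM in immune-like nuclei against 2 UMIs in Foxr2 alone, and had 3 UMIs in microglia-like nuclei of Foxr2 p53LOF. Of the targets of Stat3, 5 of 9 were higher and 3 lower in astrocyte-like nuclei (22.6% and 27.6% of all genes), 4 of 9 higher and 3 lower in immune-like (16.1% and 21.3%), 2 of 6 higher and 1 lower in OPC-like (10.4% and 24.3%) and 1 of 2 higher and 1 lower in neuron-like nuclei (12.7% and 18.1%). In oligodendrocyte-like nuclei 4 of 7 were higher and none lower (12.6% and 19.8%). In astrocyte-like nuclei Socs3 was at 38.2 against 3.29 CPM and Cebpd at 25.5 against 105 CPM. Gfap, an astrocyte transcript, was higher in every class, at 502 against 225 CPM in astrocyte-like and 37.7 against 3.81 CPM in neuron-like nuclei, and the part of free RNA in the latter was not tested. Lcn2 was at 2.29 against 359 CPM in immune-like nuclei, and 202 of its 204 UMIs in those of Foxr2 alone came from 8 macrophage-like nuclei.

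Across the 13 groups of class and library, the genes with the pattern most like each member were described by Pearson's r of log2(CPM + 1), over groups that share libraries. Stat2 was closest to Cd274 (r = 0.98), Irf1 to Parp9 (0.97), Irf7 to Parp10 (0.98), Irf9 to Parp14 (0.95) and Irf8 to Lgals9 (0.98). Stat3 was closest to Trim56 (0.97), Irf2 to Stau1 (0.97), Ifngr1 to Srgn (0.97) and Ifngr2 to Naglu (0.97). Among the members, Irf2 and Irf8 had the most similar patterns (0.96), and Ifngr2 and Irf7 the least (0.12).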

How the data were processed

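Nuclei of mouse brain tissue were profiled with the 10x Multiome assay in 3 libraries (6 records, RNA and ATAC separately). The deposited values are raw counts of UMIs for genes and of transposition events for peaks. The authors obtained them by running Cell Ranger ARC 2.0.0 against mm10 plus vector sequences, with cells and peaks called per library. The matrix of Foxr2 alone replicate 2 was not analysed here.

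Nuclei were kept with at most 5% mitochondrial UMIs, 400 or more genes and 400 or more peak fragments. They also had to lie within upper limits on genes, UMIs and fragments. These upper limits were set per library and were lower for Foxr2 alone than for Foxr2 p53LOF. Scrublet doublets (4.05% and 6.10%) were removed. Both libraries were clustered together with scanpy 1.11.5 and leidenalg 0.10.2 (2000 variable genes, 30 components, 20 neighbours, resolution 0.5). The 105 genes of the members and pathway lists, and the vector genes, were kept out of the variable genes. Clusters were named by markers, with naming thresholds set after the data were seen, and 302 and 29 nuclei remained unnamed. UMIs were summed per class as CPM, with exact Poisson, conditional binomial and Clopper-Pearson intervals at 95% (floor of 3 counts). Calls used a pseudocount of 1 CPM. RNA totals were 96929539 UMIs in Foxr2 p53LOF and 59719847 in Foxr2 alone over all barcodes. The scripts were tested on simulated data. Members and lists were chosen with earlier results of these data known. All members were named. Other pathway genes were named when they were, among those with at least 10 CPM in 1 library, in the 3 of their list with the largest difference in immune-like or the 2 in astrocyte-like nuclei, and similar genes were the 3 with the highest correlation to each member. Ligands, library markers and genes of the vector were named outside this rule.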

Additional observations from a re-analysis of the deposited data

Results flagged for a closer look

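The promoter signal of 5 members differed between the libraries in opposite directions in different classes, each with a counting interval of the ratio that excluded 1, and this difference between classes was not tested. The log2 ratio of Foxr2 p53LOF to Foxr2 alone for Ifngr1 was 0.74 in neuron-like and -0.55 in astrocyte-like nuclei, and for Stat3 it was 0.54 and -0.63. For Irf2 the neuron-like ratio was 0.63 and the immune-like ratio -0.46. For Irf1 it was 2.08 in oligodendrocyte-like and -0.29 in microglia-like nuclei, although Irf1 RNA was higher in both. For Irf8 it was 1.0 in astrocyte-like and -0.64 in neuron-like nuclei, while Irf8 RNA had a ratio above 1 in both, under 10 CPM in the latter. The median log2 ratio of all promoters tested was 0.35 in neuron-like, -0.15 in astrocyte-like, -0.13 in oligodendrocyte-like, -0.16 in immune-like and -0.20 in microglia-like nuclei.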

How the results depend on the processing

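Alternatives were another normalization, another pseudocount, no limit on low values, means over nuclei, a finer clustering, doublets kept, stricter limits on nuclei and, for promoters, a narrower window or the main peak alone. Ratios of single members between the libraries were rerun for RNA in neuron-, astrocyte-, oligodendrocyte- and immune-like nuclei. For promoters they were rerun in immune-like nuclei only. No called difference among these changed direction, and 12 of 261 RNA and 13 of 36 promoter log2 ratios moved out of their counting interval. The 261 include ratios with microglia-like nuclei alone. Of the promoters rerun, only Irf7 was called. RNA ratios of COP-like and OPC-like nuclei were not rerun. Nor were promoter ratios of other classes, apart from Irf7 and Ifngr2 with the main peak alone. Further alternatives, microglia-like nuclei in place of immune-like ones and nuclei without immune-marker UMIs, were added after seeing the data. Without the limit on low values, 7 members in place of 4 were past 2-fold in neuron-like nuclei (21.0% of all genes were). The lower Ifngr1 depended on nucleus limits: with at least 1000 genes and 1000 fragments, which left 161 of 424 immune-like nuclei of Foxr2 alone, its log2 ratio in immune-like nuclei was -0.92, and with doublets kept it was -0.93 in astrocyte-like nuclei, both short of 2-fold. The stricter limits also brought Irf8 (1.75) and Irf2 (1.21) past 2-fold in immune-like nuclei. Irf2 in astrocyte-like nuclei (0.94 as a mean over nuclei) and the Irf7 promoter in immune-like nuclei (1.04 with its main peak alone) lay near the limit. The share of nuclei with an Irf8 UMI followed depth. Thinned to 500 UMIs and unthinned, it was 0.133% and 4.97% in neuron-like, 3.29% and 33.7% in astrocyte-like, 0.328% and 2.43% in oligodendrocyte-like, 3.90% and 31.3% in COP-like and 15.5% and 51.8% in immune-like nuclei of Foxr2 p53LOF, and 0.0236% and 1.18% in neuron-like nuclei of Foxr2 alone. It was 10.6% in immune-like nuclei of Foxr2 alone at 500 UMIs, and 6.26% in COP-like nuclei with doublets kept. No paired analysis was possible because counts of only 1 library per genotype were analysed here, which also allows no library to be left out.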
